A study of Drosophila melanogaster with 15 samples.

Results

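The ventral lateral neurons (LNvs) of larvae without a working circadian clock were compared with the general neuron population of the same stage, to ask which transcripts still mark these pacemaker cells when the clock is broken. The comparison took the 6 arrays of per0 and cyc0 LNvs and the 3 arrays of elav neurons, all collected at zeitgeber time (ZT) 15, so 9 of the 15 arrays of the series. The per0 LNvs came from larvae of genotype yw, per0; Pdf-RFP and the cyc0 LNvs from yw, Pdf-RFP, cyc0 larvae, with 3 arrays each. The elav neurons (3 arrays) came from elav-Gal4, UAS-GFP larvae, and the wild-type LNvs used for reference (3 arrays at ZT15) came from yw, Pdf-Gal4; UAS-GFP larvae. The series also holds 3 arrays of wild-type LNvs at ZT3. They counted when probe sets were chosen for testing and entered the statistical fit, and counts over LNv arrays include them. Their values are given for some genes, but no test against them is reported. All larvae were third-instar (L3) and were kept at 25 °C on a daily cycle of 12 h light followed by 12 h dark. ZT15 falls 3 h into the dark. Brains were dissociated for 2 h, and about 1000 of the most fluorescent cells were sorted per array, whose mRNA was amplified before hybridization.

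LNvs are the principal circadian pacemaker neurons of the fly brain and release the neuropeptide Pigment-dispersing factor (Pdf), which carries time information to other clock neurons. Their clock turns on a heterodimer of CLOCK (CLK) and CYCLE (CYC) that activates per, tim, vri and Pdp1, while PER and TIM proteins feed back to repress it. A per0 cell lacks the repressor PER and a cyc0 cell lacks the activator CYC, so the loop stops at opposite points. Pdf and the peptide-secretory apparatus belong to the differentiated identity of the cell rather than to the loop itself.

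The mutants carried a red reporter driven directly by the Pdf promoter and the elav and wild-type groups a green one driven through Gal4, so reporter, genotype and cell type cannot be told apart where these groups are compared. The elav group is labelled as elav neurons by title and genotype, although its tissue label reads as LNvs and the sorting protocol names red cells for every array. The transcript of elav, a pan-neuronal RNA-binding protein gene, was present in all 9 arrays, at 8.40, 8.58 and 9.28 in elav neurons, 5.80, 5.00 and 6.38 in per0 and 7.66, 8.27 and 7.31 in cyc0. The elav neurons are a mixture of many neuron types, and in bulk samples fewer cells of a type and less RNA per cell cannot be told apart. Values are deposited log2 values (GCRMA, a background-corrected and normalized probe-set summary). Between 3520 and 5436 of 18769 probe sets other than controls reached log2 4 on an array. The cyc0 replicate 3 array stood apart from its group, correlating at 0.73 and 0.84 with the others over the tested probe sets, while the per0 arrays correlated at 0.87 to 0.92. The elav replicate 3 array carried peptide transcripts that the other elav arrays lacked, such as Ms, the myosuppressin gene, at 8.88 against 2.38 and 2.32.

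Of 5829 probe sets tested (those that reached log2 4 on at least 3 of the 15 arrays), 234 differed from elav neurons in both mutants in the same direction (4.01% of those tested), 137 of them higher and 97 lower. Taken alone, per0 LNvs differed from elav neurons in 597 probe sets (10.2%) and cyc0 LNvs in 327 (5.61%), while their mean differed in 608 (10.4%). A probe set was called at an adjusted p of 0.05 (limma, Benjamini-Hochberg over all tested probe sets), and the 2 mutant comparisons share the elav arrays. Counted by gene, with each gene represented by its brightest probe set, 199 of 4718 genes were called in both mutants (4.22%), with 119 higher (2.52%) and 80 lower (1.7%). Each mutant taken singly, 7.06% of genes were higher and 3.26% lower in per0, and 3.67% were higher and 2.1% lower in cyc0. Of these, 111 were higher and 77 lower with none of the 6 mutant arrays overlapping the 3 elav arrays (2.35% and 1.63% of the genes tested). The median difference, mean of the mutants minus elav neurons, was 3.16 on the log2 scale for the 111 (range 1.82 to 9.16) and 2.90 in size for the 77 (1.53 to 6.05), while the median over all tested probe sets was 0.32. Centring each array on its median moved that overall median to -0.04 and quantile normalization to 0.05. Higher calls made up 58.5% of those in both mutants, which became 43.2% with centred arrays and 46.2% with quantile-normalized ones. For per0 alone these shares were 67.5%, 50.7% and 51%, and for cyc0 alone 60.9%, 43.4% and 49.3%. The filter admits a gene through either side. Of the 77, 13 reached log2 4 on the elav arrays alone, which is every tested gene of that kind. Their being tested presupposed the difference and their calls carry no weight. Others of the 77 reached log2 4 on fewer than 3 arrays outside the elav group, so they too were tested through the elav arrays. Among the named genes these were ct, pdm3, tup, vvl, B-H2, CG14273, wor, Mcm5, ChAT, VAChT and scro. Their calls are given as a description. With no filter on low values, all of them but scro kept their calls. Of the 111, 12 reached log2 4 on LNv arrays alone, as did 620 of the 4718 genes. Among the 12 were myd, CG1275, Glyp, Pgm1 and cry, which entered through the side where they were high. Their folds and adjusted p are given as a description. Higher genes with fewer than 3 elav arrays at log2 4, such as cac, Hex-A and Pfk, needed LNv arrays to enter too. Outside the 111, per, Irk1, Tbh and Capa entered through LNv arrays alone too. List counts and medians below are over the members that passed the filter and describe those members only. Each list count stands beside the shares over all tested genes, 2.52% higher and 1.7% lower in both mutants. For list counts with no filter, the background is 81 probe sets higher and 79 lower in both mutants, of 18769.

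Leaving out the deviating cyc0 replicate 3 raised the count in both mutants from 234 to 317, and leaving out elav replicate 3 gave 240. The count fell to 137 without per0 replicate 1, 125 without cyc0 replicate 1, 142 without cyc0 replicate 2, 140 without elav replicate 1 and 139 without elav replicate 2.

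The neuropeptide gene Pdf was high in both mutants. It stood at 13.07, 12.93 and 13.05 in per0 LNvs and at 12.93, 12.80 and 12.37 in cyc0 LNvs, against 3.06, 3.57 and 4.49 in elav neurons. Wild-type LNvs read 12.61, 12.41 and 12.48. The mutant arrays lay far above every elav array, by 9.16 on the log2 scale (SE 0.41, adjusted p = 1.78e-10), and the difference from wild type was 0.36 (adjusted p = 0.645). Since the sort itself relied on the promoter of Pdf, the gene's difference describes the sort and is no independent result.

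Genes for making and storing peptides were higher beside Pdf. Of 9 tested genes for peptide processing and dense-core vesicles, 4 were higher in both mutants and none was lower, and the median difference of the 9 was 2.05, against 0.33 over all tested genes. Pal2, which encodes a lyase of the last step of peptide amidation, stood at 9.87, 8.72 and 9.26 in per0 and 9.96, 11.37 and 8.05 in cyc0, against 5.48, 4.53 and 6.71 in elav neurons. All 6 mutant arrays exceeded all 3 elav arrays, by 3.97 (SE 0.71; adjusted p = 0.00726 in per0 and 0.00459 in cyc0). Phm, which encodes the hydroxylase that acts just before it, differed by 2.64 (SE 0.52; adjusted p = 0.01 and 0.0121), and a second probe set of Phm passed in both mutants too. Its call was lost without per0 replicate 1, cyc0 replicate 1 or 2, or elav replicate 1. The gene 7B2, whose product assists the prohormone convertase encoded by amon, was higher by 3.03 (SE 0.51; adjusted p = 0.00451 and 0.00366). IA-2, a membrane protein gene of dense-core vesicles, was higher by 2.05 (SE 0.44; adjusted p = 0.0164 and 0.0204), and its call was lost after centring and on leaving out replicate 1 or 2 of either mutant or of the elav neurons. The convertase gene amon itself stood at 11.74, 11.79 and 11.36 in cyc0 and 9.82, 9.27 and 9.27 in per0, against 9.04, 4.08 and 7.88 in elav neurons. It passed in cyc0 (adjusted p = 0.00464) and not in per0 (0.0943), with elav arrays that themselves spread widely. Pal1, Cadps and Rab2 differed by 0.21, -0.30 and 0.54 and passed in neither mutant. With no filter the count was 3 of the 11 list members on the array. The count of 4 fell to 2 without per0 replicate 1, without cyc0 replicate 1 and without cyc0 replicate 2.

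**Figure D1:**
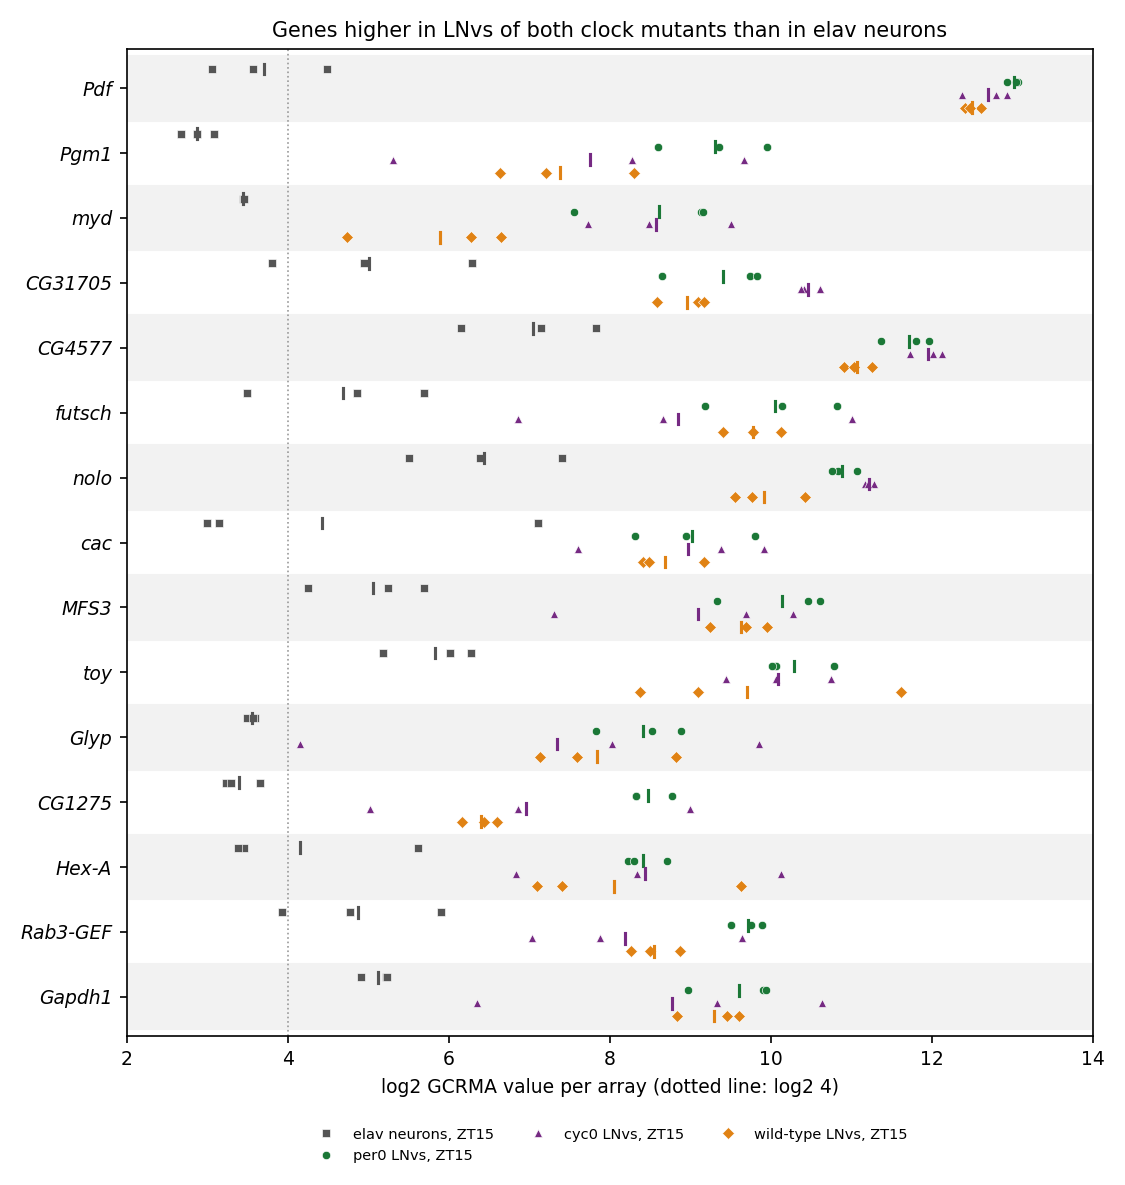
Log2 values per array (horizontal axis) of 15 genes, those most above elav neurons among the genes called in both mutants without overlap. Each point is an array and each vertical tick a group mean. All 6 mutant arrays lie to the right of the 3 elav arrays for every gene. The lowest mutant array is cyc0 replicate 3 for every gene other than myd, CG31705, CG4577 and nolo.

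Transcripts of sugar breakdown and glycogen use were higher in the mutant LNvs than in elav neurons. Of 15 tested glycolysis and glycogen enzyme genes, 11 were higher in both mutants and none was lower, with a median difference of 2.91 against 0.33 over all tested genes. This list was drawn up after the values had been seen, so it carries no test of its own. The steps covered run from glucose phosphorylation by Hex-A through Pgi, Pfk, Ald1, Tpi, Gapdh1, Pgk and Eno, together with Pgm1, which interconverts glucose phosphates, Glyp (glycogen phosphorylase) and Glys (glycogen synthase).

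Pgm1 stood at 9.95, 8.60 and 9.36 in per0 and 8.28, 9.67 and 5.31 in cyc0, and at 2.67, 3.08 and 2.87 in elav neurons. No elav array reached log2 4, and the 6 mutant arrays were all above them, at least 23.1-fold on average (adjusted p = 0.000104 in per0 and 0.00157 in cyc0). This fold and the others given as "at least" set the elav neurons, or whichever group lay below log2 4 on all its arrays, at log2 4, a level chosen for this purpose and not one the arrays define. Glyp read 8.89, 7.83 and 8.53 in per0 and 8.03, 9.85 and 4.15 in cyc0, against 3.59, 3.49 and 3.57. The lowest mutant array, cyc0 replicate 3, lay only just above the elav arrays, and the bound on the mean was at least 14.7-fold (adjusted p = 0.00366 and 0.0258). Its call was lost in 8 of 19 alternative settings, among them leaving out cyc0 replicate 1 or 2 or any elav array, with an adjusted p of up to 0.174.

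Pfk, the gene of the committed step of glycolysis, was tighter across arrays. It stood at 8.39, 7.87 and 8.10 in per0 and 7.49, 7.92 and 7.36 in cyc0, against 4.12, 3.25 and 4.38 in elav neurons, a difference of 3.94 (SE 0.41; adjusted p = 5.13e-05 and 0.000218). All mutant arrays were above log2 7 and all elav arrays below 5. Hex-A differed by 4.27 (SE 0.71), Gapdh1 by 4.07 (SE 0.66), Pgi by 3.29 (SE 0.45) and Eno by 3.23 (SE 0.54), each without overlap. The call of Eno was lost without cyc0 replicate 1. Tpi differed by 2.69. Ald1 differed by 2.91 (SE 0.38) on its brightest probe set, while a dimmer probe set differed by 0.73 and passed in neither mutant. Glys differed by 2.54 (SE 0.52; adjusted p = 0.0138 and 0.0131), with a call lost without per0 replicate 1, cyc0 replicate 2 or elav replicate 2. Pgk had the smallest called difference of the list, 1.82 (SE 0.40; adjusted p = 0.0325 and 0.0146), and lost its call in 11 of 19 settings, both rescalings among them. The 4 tested members that were not called in both were Pglym78 (0.77), UGP (1.41), AGBE (1.88) and CG9485 (1.40). UGP passed in cyc0 alone (adjusted p = 0.0141 against 0.908 in per0). The count of 11 stayed between 8 and 12 when any of the 9 arrays was left out. Glyp, Pgm1, UGP, AGBE and CG9485 reached log2 4 on LNv arrays alone, and with no filter 9 of the 17 members on the array were called.

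**Figure D2:**
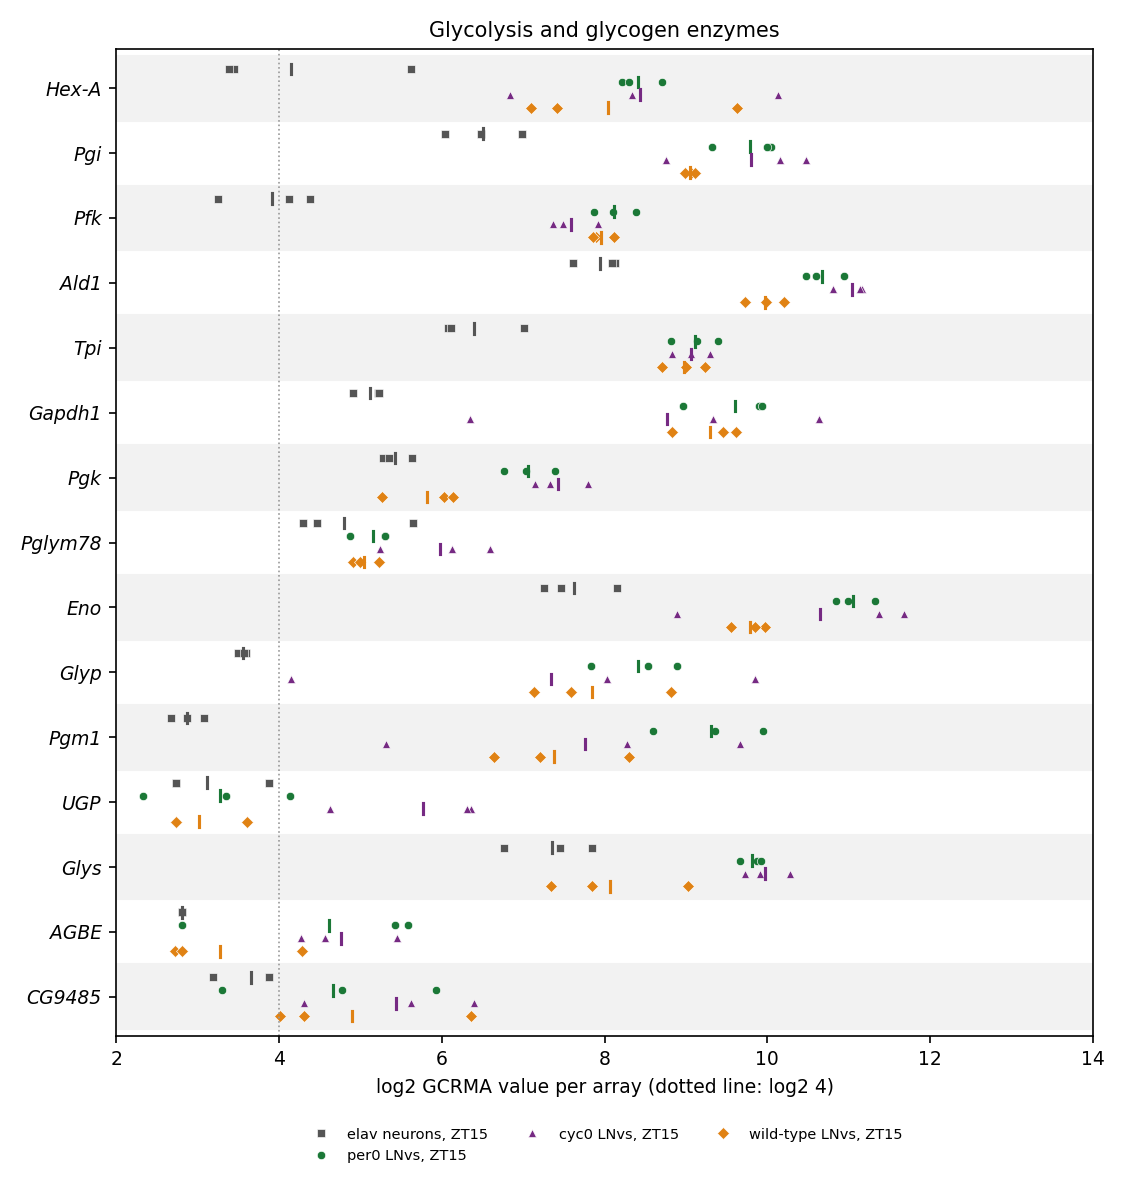
Log2 values per array (horizontal axis) of the 15 tested glycolysis and glycogen enzyme genes, in pathway order from hexokinase to enolase and then glycogen metabolism. Each point is an array and each vertical tick a group mean. The 11 genes called in both mutants have all mutant arrays to the right of the elav arrays, and Pglym78, UGP, AGBE and CG9485 do not separate in both mutants.

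Genes of mitochondrial metabolism and protein turnover are given for comparison. Of 15 tested citric acid cycle and aspartate shuttle genes, a list also drawn up after the values had been seen, 2 were higher in both mutants (13.3%, against 2.52% of all genes). These were the aspartate aminotransferase genes Got1 (difference 3.54, SE 0.50; adjusted p = 0.000337 and 0.004) and Got2 (3.88, SE 0.58; adjusted p = 0.004 and 0.000746). Of 51 oxidative phosphorylation subunit genes tested, 7 were higher and 1 was lower in per0 and none passed in cyc0, so that none was called in both. That count was 4 without elav replicate 3, the array with the added peptide transcripts, 1 without cyc0 replicate 3 and 3 with array weights. The numbers in both mutants were also 0 of 61 for mitochondrial ribosomal proteins, 0 of 29 for cytoplasmic ribosomal proteins and 0 of 25 for proteasome subunits, with 0 of 13 for heat-shock and chaperone genes, of which 4 were higher in per0. With 2.52% of all genes called higher, counts of 0 in lists of these sizes do not set them apart from other genes. Leaving out 1 array gave at most 1 for the cytoplasmic ribosomal, proteasome and heat-shock lists. The medians of these 5 groups, in the same order, were 0.67, 0.44, 0.34, 0.97 and 1.02, with 0.33 over all tested genes. Of 17 tested vacuolar ATPase genes, which encode the proton pump that acidifies secretory and synaptic vesicles, 3 were higher in both mutants, and the median of the 17 was 1.70. They were Vha13 (3.38, SE 0.52), VhaAC45 (3.46, SE 0.55) and Vha100-1 (3.04, SE 0.56), the last of which encodes the subunit of neuronal vesicles. With no filter 1 of the 31 members on the array was called. The count was 7 without cyc0 replicate 3 and 1 without cyc0 replicate 1, cyc0 replicate 2 or elav replicate 2.

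Among synaptic genes a few transcripts were higher in both mutants. Of 14 tested pan-neuronal and synaptic genes, 3 were higher in both mutants, namely futsch, cac and Rab3, against 2.52% of all tested genes. The list's median was 1.28. With no filter 1 of the 16 members on the array was called. The gene futsch, whose product binds microtubules in axons and at synapses, read 10.82, 9.18 and 10.14 in per0 and 8.66, 11.01 and 6.86 in cyc0. The elav arrays read 3.49, 4.86 and 5.69, all lower, for a difference of 4.76 (SE 0.72; adjusted p = 0.000604 and 0.00582).

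The calcium channel gene cac, which encodes the pore subunit that triggers transmitter release, showed one high elav array. It stood at 9.80, 8.31 and 8.95 in per0, 9.38, 9.92 and 7.60 in cyc0, and 7.11 in elav replicate 3, the other 2 elav arrays being at 3.15 or lower. The groups did not overlap but elav replicate 3 came close. The difference was 4.58 (SE 0.77; adjusted p = 0.00316 and 0.00499). Rab3, a small GTPase gene of synaptic and secretory vesicles, differed by 2.96 (SE 0.51) and its exchange factor gene Rab3-GEF by 4.08 (SE 0.55; adjusted p = 0.000155 and 0.00425). Rab3-GEF, cac and the active zone gene Fife (4.04, SE 0.57) made 3 of 8 tested active zone genes, again a list drawn up after the values had been seen. By contrast nSyb, Syn, Snap25, Csp and unc-13 passed in neither mutant, with differences of 1.48, 0.85, 1.04, 1.09 and 0.27. The elav transcript was lower in per0 (-3.03, adjusted p = 0.00306) and did not pass in cyc0 (-1.01, adjusted p = 0.366).

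Each of the channel and signalling lists had 1 or 2 members called in both mutants, where 2.52% of all tested genes were higher. SK, the gene of a calcium-activated potassium channel, was the 1 of 8 tested potassium channel genes. It stood at 10.43, 9.43 and 9.89 in per0 and 10.20, 10.51 and 8.71 in cyc0 against 4.21, 6.81 and 6.83, without overlap (3.91, SE 0.64; adjusted p = 0.00269 and 0.00459), and a second probe set (2.00) passed in neither mutant. Of 11 sodium, calcium and cation channel genes, cac and unc79, a component gene of the sodium leak channel complex, were called (unc79 3.28, SE 0.57; adjusted p = 0.00306 and 0.00815). Of 10 cAMP signalling genes, the called one was Epac, a guanine exchange factor gene activated by cAMP. It read 9.21, 8.29 and 9.19 in per0, 7.69, 7.97 and 8.29 in cyc0 and 4.99, 4.19 and 5.43 in elav neurons (3.57, SE 0.47; adjusted p = 0.000179 and 0.00222). The adenylyl cyclase genes Ac78C (3.63) and Ac13E (2.84) passed in per0 only (adjusted p = 0.00578 and 0.00816, against 0.101 and 0.0878 in cyc0). Neither differed between the mutants (adjusted p = 0.582 and 0.69). Of 11 tested ionotropic receptor genes nAChRbeta1 was called, by 2.56 (SE 0.56; adjusted p = 0.0213 and 0.0204). Its call was lost without per0 replicate 1 or 3, cyc0 replicate 1 or elav replicate 1, and its other probe set (0.87) passed in neither mutant.

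Other genes with large positive differences had no place in these lists. The largest after Pdf and Pgm1 was myd (CG31475), at 9.13, 7.56 and 9.16 in per0 and 8.49, 9.51 and 7.73 in cyc0 against 3.44, 3.45 and 3.45 in elav neurons. The mutant arrays were all higher, at least 24.2-fold on average (adjusted p = 8.21e-05 and 0.000171), and they also exceeded the wild-type LNvs, which read 6.28, 4.74 and 6.65, by 2.70 (adjusted p = 0.0106). CG31705 differed by 4.92 (SE 0.51), CG4577 by 4.80 (SE 0.43) and CG1275 by at least 13.2-fold. Both myd and CG1275 reached log2 4 on LNv arrays alone. MFS3, a transporter gene of the major facilitator superfamily, differed by 4.55 (SE 0.62; adjusted p = 0.000312 and 0.00277). The gene nolo differed by 4.62 (SE 0.45), on a probe set that stood at 10.76 or more in each mutant array, while its other 2 probe sets differed by 0.41 and 0.82 and passed in neither mutant. CG14186 was the 1 of 7 tested activity-regulated and JNK-response genes called in both, at 3.14 (SE 0.41; adjusted p = 0.000571 and 0.000592). The transcript of toy, which encodes one of the fly's Pax6 proteins, is described with the other identity factors.

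Transcripts lower in the mutant LNvs were led by transcription factors known from the specification of other neuron types. Of 21 tested neuronal identity factor genes, 8 were lower in both mutants (Antp, ct, Lim1, Lim3, pdm3, tup, vvl and zfh1) and the remaining called one, toy, was higher, with a median of -1.95 against 0.33 over all tested genes. The homeobox gene ct had the largest negative difference of all genes called without overlap. It stood at 10.53, 9.16 and 8.01 in elav neurons, 2.52, 2.53 and 3.47 in per0 and 2.52, 3.41 and 4.66 in cyc0, so that every mutant array lay below log2 5 and every elav array above 8. The difference was -6.05 (SE 0.56; adjusted p = 1.57e-05 and 7e-05), while a second, dimmer ct probe set differed by -0.96 and passed in neither mutant. Outside the elav group ct reached log2 4 on cyc0 replicate 3 alone. It was thus tested through the elav arrays, and its p is given as a description.

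The LIM-homeobox genes Lim1 and tup are used in motor and interneuron specification. Lim1 read 9.69, 10.30 and 9.35 in elav neurons, 3.78, 3.79 and 4.82 in per0 and 4.92, 5.90 and 6.92 in cyc0 (-4.76, SE 0.58; adjusted p = 7.34e-05 and 0.00222). The gene tup read 8.67, 7.94 and 7.12 against 2.66, 2.68 and 4.33 in per0 and 3.32, 3.73 and 2.69 in cyc0 (-4.68, SE 0.51; adjusted p = 0.000102 and 0.000177). In both genes the mutant arrays lay well below the elav arrays, and the cyc0 values of Lim1 were the nearest.

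Antp, the Hox gene of thoracic segments, differed by -4.87 (SE 0.73, adjusted p = 0.00175 and 0.00195) and by -3.13 on a second probe set that also passed. On the second, mutants minus wild-type LNvs at ZT15 was -2.16 (adjusted p = 0.0205). There wild type averaged 4.78 at ZT15 and 6.46 at ZT3, and elav neurons 5.76. On the first, wild-type LNvs at ZT15 read 5.63, 6.94 and 3.83, and the mutants did not pass against them (-1.97, adjusted p = 0.152). The POU-domain genes pdm3 and vvl differed by -4.71 (SE 0.58) and by at least 8.58-fold, vvl lying at or below 2.89 on all 6 mutant arrays. Lim3 and zfh1 differed by -2.87 and -2.70, Lim3 being one of the genes tested through the elav arrays alone. The genes ct, pdm3, tup and vvl also needed the elav arrays to pass the filter, so their calls presupposed the difference too. B-H2, a Bar-class homeobox gene outside the list, stood at 6.11, 5.99 and 6.34 in elav neurons and between 2.46 and 2.50 in the mutants, at least 4.43-fold lower (adjusted p = 0.00125 and 0.00195).

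The Pax6 gene toy went the other way. It read 10.79, 10.06 and 10.01 in per0 and 10.07, 10.75 and 9.44 in cyc0, against 5.18, 6.02 and 6.28 in elav neurons (4.36, SE 0.61; adjusted p = 0.000638 and 0.00148). The mutant arrays all stood above log2 9 and the elav arrays below 7, although 2 further toy probe sets differed by 1.29 and 1.35 and passed in neither mutant. Of the 21 identity factors, oc, dac and ap passed as lower in cyc0 alone, and none of the 3 differed between the mutants at an adjusted p of 0.05. Leaving out 1 array gave between 6 and 10 lower factors, and toy stayed the single higher one. With no filter 6 of the 35 factors on the array were lower.

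**Figure D3:**
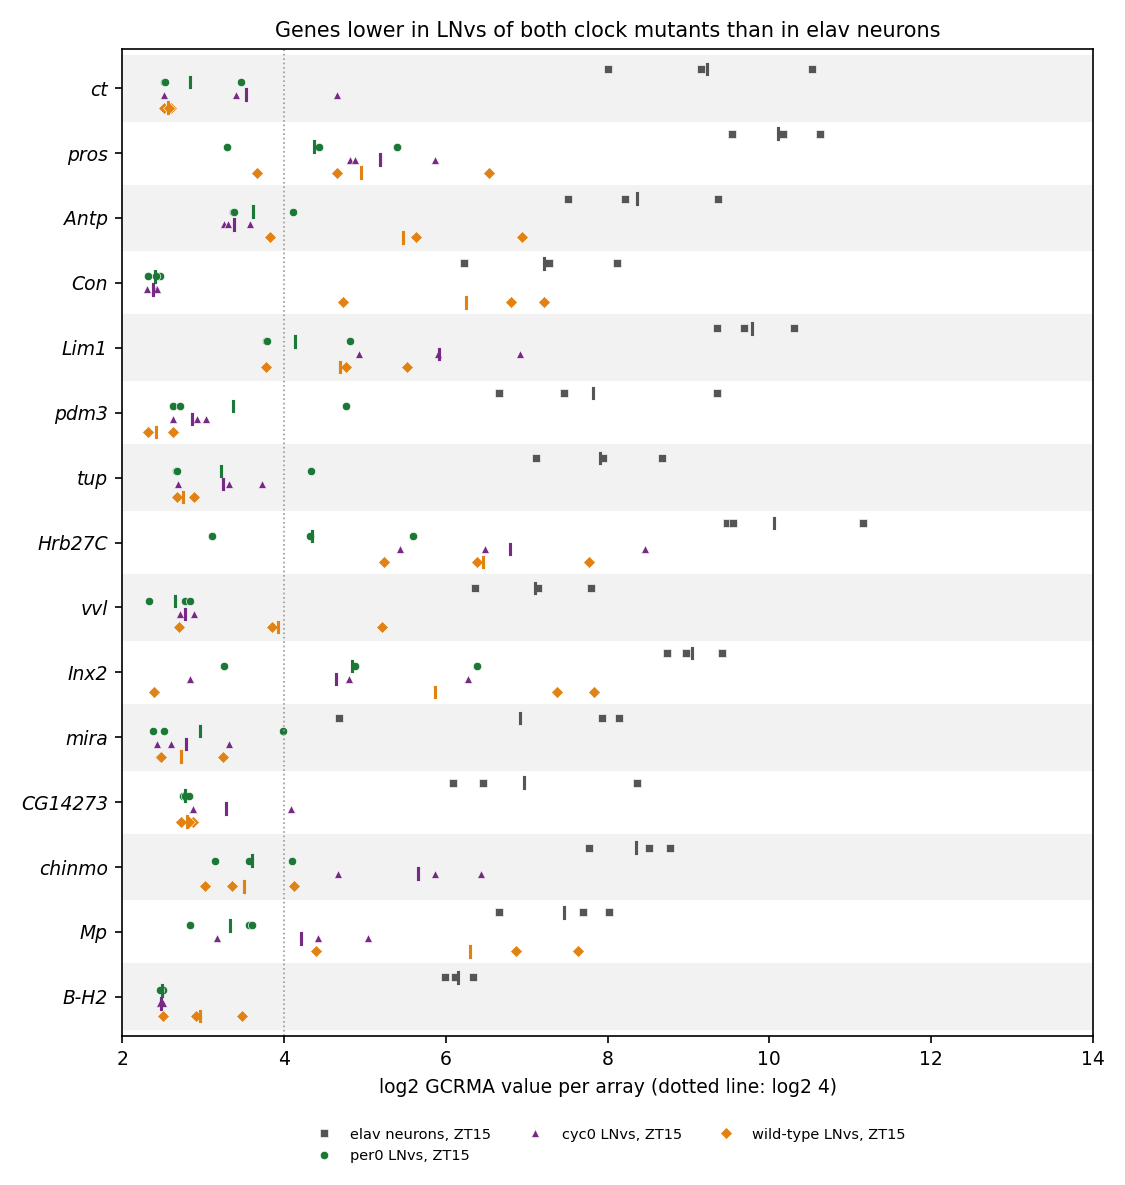
Log2 values per array (horizontal axis) of 15 genes, those most below elav neurons among the genes called in both mutants without overlap. Each point is an array and each vertical tick a group mean. All 6 mutant arrays lie to the left of the 3 elav arrays for every gene, and for Con, Mp, Inx2 and Antp, for example, some wild-type LNv arrays lie to the right of all mutant arrays.

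Markers of fast transmission were lower as well. Of 6 tested transmitter synthesis and transport genes, 3 were lower in both mutants, against 1.7% of all tested genes. This count was 3 whichever of the 9 arrays was left out and with no filter, then of 13 on the array. ChAT and VAChT, which make and load acetylcholine, differed by -3.09 (SE 0.48; adjusted p = 0.000797 and 0.00689) and by at least 5.3-fold (adjusted p = 0.00358 and 0.004). ChAT stood at 6.48, 6.07 and 6.88 in elav neurons, 2.85, 2.68 and 3.51 in per0 and 3.24, 3.28 and 4.77 in cyc0, with no overlap. Gad1, which makes GABA, was at least 3.96-fold lower and lay at or below 2.93 on all 6 mutant arrays. It reached log2 4 on the elav arrays alone. ChAT and VAChT reached it on fewer than 3 arrays outside the elav group. All 3 calls therefore presupposed the difference and are given as a description. Tbh, the gene of octopamine synthesis, was higher in per0 alone, at 7.70, 4.23 and 6.01 against 3.22, 2.57 and 3.05 (adjusted p = 0.017), and stood at 4.06, 4.43 and 4.23 in cyc0 (adjusted p = 0.38). Against wild-type LNvs the mean of the mutants differed in Tbh by -4.37 (adjusted p = 0.00233).

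The elav arrays also carried markers of neural precursors and young neurons. Of 4 tested neuroblast markers 3 were lower in both mutants (insc, mira and wor), against 1.7% of all tested genes. Of 6 cell cycle markers 2 were (CycE and Mcm5). With no filter these counts were 2 of 6 and 1 of 9 on the array. The gene mira, whose product carries fate determinants in dividing neuroblasts, read 4.68, 8.14 and 7.93 in elav neurons and at most 3.98 on the mutant arrays, at least 7.55-fold lower. It was tested through the elav arrays alone, so its call presupposed the difference and is given as a description. The same holds for wor and Mcm5, which reached log2 4 on fewer than 3 arrays outside the elav group. Over the 6 neuroblast markers on the array, the mean per array was 4.62 to 6.45 in elav neurons, 2.56 to 3.91 in per0 and 2.59 to 3.78 in cyc0. Each of the 6 reached log2 4 on at least 1 elav array, while 3 in per0 and 4 in cyc0 lay below it throughout.

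Of 6 tested markers of immature neurons, pros, chinmo and nerfin-1 were lower in both mutants, against 1.7% of all tested genes. With no filter 1 of the 6 was. The homeodomain factor gene pros read 10.17, 10.63 and 9.54 in elav neurons, 3.29, 4.43 and 5.40 in per0 and 4.82, 5.87 and 4.88 in cyc0 (-5.34, SE 0.69; adjusted p = 0.000241 and 0.00124). Its mutant arrays lay below log2 6 and its elav arrays above 9. The calls of chinmo (-3.72) and nerfin-1 (-3.15) were each lost in 12 of 19 settings, and the list's count was 1 without per0 replicate 2 or 3, cyc0 replicate 1 or 3, or elav replicate 1 or 3. The cell cycle count was 0 without cyc0 replicate 1, cyc0 replicate 2 or elav replicate 2, and 1 without elav replicate 1 or 3. The part of these cells in the lower transcripts of the mutant LNvs was not tested. Of 5 tested glia markers none was called in both mutants, and the mean over 9 glia markers was 3.84 to 4.94 in elav neurons, 3.17 to 3.46 in per0 and 3.46 to 4.13 in cyc0. The glial master gene repo read 4.05, 2.88 and 5.06 in elav neurons. It lay below log2 3 in per0 and at 4.06 on 1 cyc0 array. Photoreceptor and muscle markers on the array were too low to be tested, and the single hemocyte and 2 fat body genes tested were not called.

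Several genes of surface contact, the extracellular matrix and RNA processing were lower too. Over all tested genes, 1.7% were lower and 2.52% higher in both mutants. Con, which encodes the adhesion protein Connectin, stood at 7.28, 8.12 and 6.23 in elav neurons and between 2.31 and 2.46 on all 6 mutant arrays, at least 9.26-fold lower (adjusted p = 0.000143 and 0.000202). The mutant values were tightly grouped, while wild-type LNvs read 4.73, 7.21 and 6.80. The collagen gene Mp differed by -3.69 (SE 0.63) and the gap-junction gene Inx2 by -4.30 (SE 1.03; adjusted p = 0.0317 and 0.0364). The call of Inx2 was lost in 9 of 19 settings, and that of Mp in 4, among them leaving out cyc0 replicate 1 or elav replicate 1. Of 24 tested guidance and adhesion genes Con and Nrt (-2.56, SE 0.49) were called, Nrt not without any single cyc0 array or without elav replicate 1 or 2, and of 18 tested Dpr, DIP and beat genes beat-IIa (-3.02, SE 0.55; adjusted p = 0.00692 and 0.00611), whose call was lost without per0 replicate 1. Of 15 tested hnRNP and splicing factor genes, Hrb27C was lower and ps was higher (3.60, SE 0.68; adjusted p = 0.00199 and 0.0378). The call of ps was lost in 9 of 19 settings, among them leaving out any cyc0 array, and its other probe set differed by -1.73 and passed in neither mutant. Hrb27C read 11.16, 9.48 and 9.55 in elav neurons, 4.32, 3.11 and 5.59 in per0 and 5.43, 6.49 and 8.46 in cyc0 (-4.50, SE 0.76; adjusted p = 0.000555 and 0.0351), with cyc0 replicate 3 the closest to the elav arrays. Its call was lost without cyc0 replicate 1, cyc0 replicate 2, elav replicate 1 or elav replicate 2. CG14273, also among the 15 lowest, differed by -3.94 (SE 0.52).

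**Figure D4:**
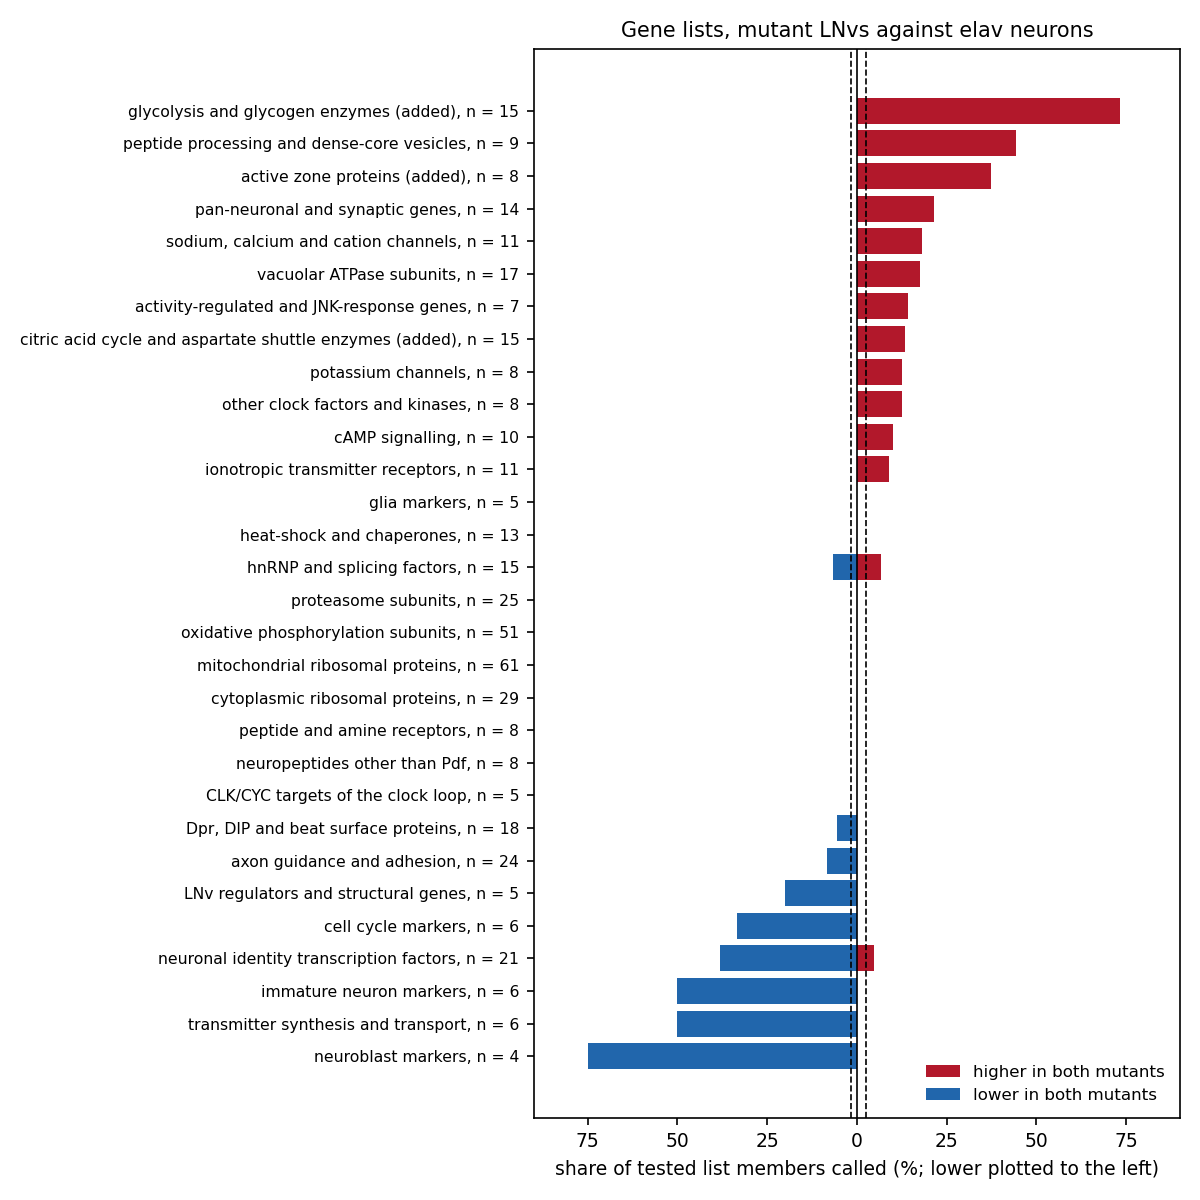
Share of the tested members of each gene list (percent, horizontal axis) called higher (right) or lower (left) in both mutants, for lists with at least 4 tested genes; n is the number tested and the dashed lines are the shares over all 4718 genes, 2.52% higher and 1.7% lower. Lists marked as added were drawn up after the values had been seen. The higher side is led by glycolysis and glycogen enzymes (11 of 15) and the lower side shows neuroblast markers at 3 of 4. Of these, mira and wor passed the filter only through the elav arrays.

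The mutant LNvs were set against wild-type LNvs of the same hour to give the level of these transcripts where the clock is intact. Over all probe sets 152 differed between the mean of the mutants and wild type (2.61%), or 124 of 4718 genes (2.63%, 1.23% higher and 1.4% lower), and among the 111 genes higher in both mutants than in elav neurons 4 did, all above wild type. They were myd, Mpi (8.71 and 8.83 on average in per0 and cyc0 against 6.31), Cyp4p1 and Cyp4p2. The cytochrome P450 gene Cyp4p2 averaged 6.35 in both mutants, 2.37 in LNvs of the wild type and 3.17 in elav neurons (mutants minus wild type 3.98, SE 0.49, adjusted p = 0.000462). Mutants minus wild type had a median of 0.42 over the 111 and ranged from -1.61 to 3.98, against a median of 0.26 over all tested genes. For 95 of the 111, all wild-type arrays at ZT15 lay above all elav arrays. In the others, among them Got2, Glys and Pgk, not every wild-type array did. The elav arrays are those of the selection, so this count is a description only.

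Among the 77 lower genes 4 differed, all below wild type, namely Con (-3.85, adjusted p = 0.0013), CG33232 (-3.48, adjusted p = 0.00207), CG16758 (adjusted p = 0.00546) and Mp (-2.53, adjusted p = 0.0346). The median over the 77 was 0.07, with a range from -3.85 to 1.66. All wild-type arrays at ZT15 lay below all elav arrays for 69 of the 77, again a description only. Con and Mp were among the exceptions. With a median SE of 0.57 for this comparison, a p that misses the threshold does not show that mutant and wild-type levels are equal. Because the mutants carry a red and the wild type a green reporter, genotype and reporter cannot be told apart here. None of the 111 and none of the 77 was called between the mutants, where 46 probe sets (0.789%) or 35 of 4718 genes (0.742%) were. Of these 46, 43.5% were higher in cyc0, and 58.7% of the calls after quantile normalization. Hrb87F, an hnRNP gene, was near the elav level in both mutants (11.07 to 11.37 in per0 and 10.91 to 11.11 in cyc0 against 11.63 to 12.01) and was 5.64 above wild-type LNvs (SE 0.53, adjusted p = 2.82e-05).

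The genes driven by the clock loop were not among those shared by the mutants. Of 5 tested CLK/CYC targets (per, tim, vri, Pdp1 and cwo), all 5 were higher than in elav neurons in per0 LNvs and none in cyc0 LNvs, although a second cwo probe set (-0.10) passed in neither mutant. The gene tim read 11.08, 10.84 and 10.76 in per0 and 2.88, 2.85 and 3.21 in cyc0, against 3.12, 5.56 and 4.43 in elav neurons. The per0 arrays stood far above both other groups, and the cyc0 arrays lay near the lowest elav array. The per transcript read 8.11, 5.40 and 7.61 in per0 LNvs, a mutant that lacks the protein, and 2.92, 3.39 and 3.55 in cyc0. Clk was too low to be tested, and cyc passed in neither mutant (0.97 in cyc0, adjusted p = 0.494).

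The photoreceptor protein gene cry, which makes clock cells light-sensitive, was the 1 of 8 other tested clock factors called in both mutants. It stood at 8.92, 6.13 and 8.08 in per0 and 7.05, 9.08 and 4.53 in cyc0, and at 3.37, 3.63 and 3.37 in elav neurons. The mutant arrays were all higher, by at least 9.82-fold on average (adjusted p = 0.00723 and 0.0372), but the lowest was cyc0 replicate 3. No elav array reached log2 4, so cry was tested through LNv arrays alone. The call was lost in 11 of 19 settings, among them leaving out any array other than per0 replicate 2 or cyc0 replicate 3. Of 5 tested LNv regulators and structural genes, scro was lower in both mutants (-2.34, SE 0.52; adjusted p = 0.0181 and 0.0258), with a call lost without per0 replicate 1, cyc0 replicate 1 or elav replicate 2. Fer2 and Hr51 lay below log2 4 on all elav arrays and above it on some mutant arrays, with differences of 1.62 and 1.26 that passed in neither mutant. Pura was higher in per0 alone, at 9.19, 9.27 and 9.54 against 6.63, 6.59 and 7.07 in elav neurons (adjusted p = 0.00572), and read 4.15, 5.34 and 6.19 in cyc0. Mef2 was not analysed here.

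Between the mutants, 361 genes were called against elav neurons in exactly 1 of them (7.65%), and of these 31 also differed between cyc0 and per0 (0.657% of the genes tested). For the rest, passing in 1 mutant alone is no tested difference between them. Examples among the 31 besides the clock targets were Irk1, Dh31 and Capa. Irk1, an inwardly rectifying potassium channel gene, read 6.42, 6.15 and 6.62 in per0 and 3.84, 2.63 and 2.64 in cyc0, the latter near the 2.78, 2.50 and 2.63 of elav neurons. Dh31, a diuretic hormone gene, went the other way, at 7.62, 8.86 and 7.06 in cyc0, 2.43, 2.57 and 4.13 in per0 and 4.18, 3.35 and 5.87 in elav neurons. The neuropeptide gene Capa was high in per0 alone, at 9.14, 8.74 and 5.14, and lay below log2 4 on all cyc0, elav and wild-type arrays at ZT15. It lay below log2 4 in wild type at ZT3 too, so it was tested through the per0 arrays alone. Its calls therefore presuppose the difference and carry no weight.

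Of 8 tested neuropeptide genes other than Pdf, none was called in both mutants. Besides Capa, Nplp1 was higher in per0 (4.60, adjusted p = 0.00136), where it read 10.53, 9.54 and 9.37 against 4.95, 3.55 and 7.14 in elav neurons. In cyc0 it read 7.54, 8.87 and 7.10 (2.62, adjusted p = 0.0611), and the mutants did not differ by test (adjusted p = 0.396). The sNPF gene, which encodes short neuropeptide F, was lower in cyc0 alone (adjusted p = 0.0437, against 0.353 in per0). It read 7.53, 8.45 and 7.25 in per0, 3.80, 3.73 and 3.20 in cyc0 and 8.84, 4.91 and 5.66 in elav neurons. Of 8 tested peptide and amine receptor genes none was called in both. TkR86C, a tachykinin-family receptor gene, was higher in cyc0 alone, at 7.78, 8.87 and 8.28 against 3.18, 3.31 and 4.53 in elav neurons and at most 3.31 in per0 (adjusted p = 0.000157). Outside cyc0 it reached log2 4 on fewer than 3 arrays. It was thus tested through the cyc0 arrays, and its p is given as a description.

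**Figure D5:**
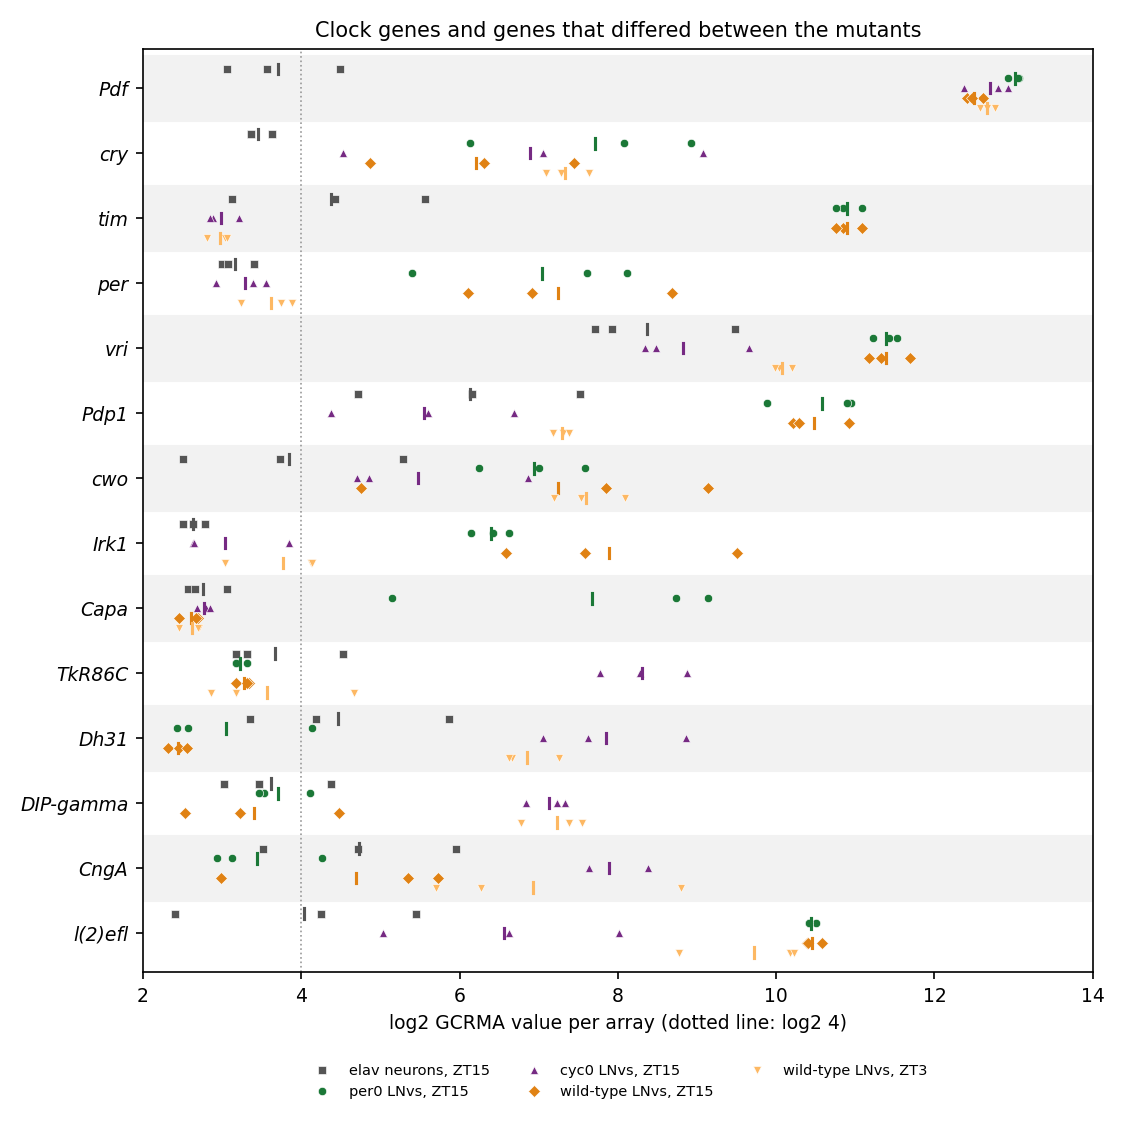
Log2 values per array (horizontal axis) of Pdf, cry, 5 targets of the clock loop and 7 further genes, in elav neurons, the LNvs of both mutants and wild-type LNvs at ZT15 and ZT3. Each point is an array and each vertical tick a group mean. Pdf is high in every LNv group, tim, per, vri, Pdp1 and Irk1 separate per0 from cyc0, and TkR86C, Dh31, DIP-gamma and CngA are higher in cyc0 than in per0.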

How the data were processed

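Per the submitters' processing notes, the authors used GCRMA, and they deposited 1 log2 value per probe set and array. Its version is not given in the sources used here. Values near background crowd at the bottom of this scale, so a difference from a group lying there may come out too small. Of 18869 probe sets 100 controls were left out. Of the rest, 13646 had 1 symbol in the platform annotation, 402 several and 4721 none, and only the first kind was named. The test took the 5829 probe sets that reached log2 4 on 3 or more of the 15 arrays. In R 4.3.3, limma 3.58.1 (lmFit, then eBayes) fitted 1 mean per group using every array (prior degrees of freedom 7.46), with two-sided p-values adjusted by Benjamini-Hochberg within each comparison. The script was tested on simulated data. The number of arrays limits the precision. The titles call the 3 arrays of a group biological replicates, and nothing says whether they came from separate crosses.

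Genes were named by rule: the 15 largest differences in each direction called in both mutants without overlap, up to 5 in each direction that differed between the mutants, a set of clock and marker genes, and up to 4 members of each list by p. Further members are named where a list is described. The members, lists and tests were chosen with earlier results of these data known. Probe sequences were not used here.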

Additional observations from a re-analysis of the deposited data

Results flagged for a closer look

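The results below differed between the mutants, by a test of cyc0 against per0 itself (limma, Benjamini-Hochberg over 5829 probe sets). Of the genes that passed against elav neurons in exactly 1 mutant, those with the largest negative difference, cyc0 minus per0, were tim (-7.91, adjusted p = 2.25e-07), CG5953 (-5.69, adjusted p = 0.00168), Pdp1 (-5.02, adjusted p = 0.000761), Capa (-4.90, adjusted p = 0.00188) and CG45263 (-4.87, adjusted p = 0.00188). A second tim probe set differed by -5.04. Capa reached log2 4 on the per0 arrays alone, so its p presupposes the difference and is given as a description. CG5953 stood at 12.14, 12.07 and 12.24 in per0, 6.46, 8.76 and 4.18 in cyc0 and 10.60, 11.43 and 9.82 in elav neurons, so that cyc0 lay below both other groups.

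Those with the largest positive difference were TkR86C (5.09, adjusted p = 7.22e-05), Dh31 (4.80, adjusted p = 0.000856), CngA (4.44, adjusted p = 0.0157), Gfat1 (3.53, adjusted p = 0.00168) and CG32683 (3.46, adjusted p = 0.00517). TkR86C, Gfat1 and CG32683 reached log2 4 on fewer than 3 arrays outside cyc0, so they were tested through the cyc0 arrays. Their p presuppose the difference and are given as a description. Gfat1, which encodes the first enzyme of hexosamine synthesis, read 6.72, 6.67 and 7.71 in cyc0 and lay below log2 4 on all per0 and elav arrays. The call of CngA between the mutants was lost in 5 of 16 settings, among them leaving out per0 replicate 1 or 2 or cyc0 replicate 1.

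Among the other named genes the difference passed for per (-3.75, adjusted p = 0.0134), vri (-2.57, adjusted p = 0.0307), Irk1 (-3.36, adjusted p = 0.0163), l(2)efl, which encodes a small heat-shock protein, (-3.89, adjusted p = 0.0176) and the surface protein gene DIP-gamma (3.44, adjusted p = 0.00352). DIP-gamma read 7.33, 7.23 and 6.84 in cyc0, 3.53, 3.46 and 4.11 in per0 and 3.46, 3.02 and 4.37 in elav neurons.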

How the results depend on the processing

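Counts are probe sets. Against elav neurons, per0 gave 347 with no filter on low values (597 as reported), 1286 with array weights and 136 with a minimum log2 difference of 1, and cyc0 gave 517 after quantile normalization (327 as reported), 826 with weights and 66 with the minimum. The mean of the mutants gave 1085 with weights and 122 with the minimum (608 as reported, 64.1% of them higher, against 43.6% after centring and 48.4% after quantile normalization), and both mutants gave 539 and 44 (234 as reported). Against wild-type LNvs the mutants gave 96 with no filter (152 as reported), 260 after quantile normalization, 616 with weights and 7 with the minimum. Between the mutants the counts were 24, 75, 817 and 16 in the same order (46 as reported). With 1 array left out the counts ran from 246 (without per0 replicate 1) to 562 for per0, 166 (cyc0 replicate 1) to 455 for cyc0, 334 (elav replicate 1) to 795 for the mean of the mutants and 125 (cyc0 replicate 1) to 317 for both. They ran from 76 (wild-type replicate 2) to 261 (wild-type replicate 1) against wild type and from 20 (cyc0 replicate 1) to 67 between the mutants. Counts without the other arrays that moved a count by over 1.5 times were, for per0, 378 (per0 replicate 3) and 345 (elav replicate 1), for cyc0, 199 (cyc0 replicate 2), 201 (elav replicate 1) and 203 (elav replicate 2), for the mean, 404 (per0 replicate 1) and 379 (elav replicate 2), against wild type, 80 (wild-type replicate 3), and between the mutants, 27, 29 and 26 (per0 replicates 1, 2 and 3).

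Of 66 named genes called in both mutants, 26 kept their call in every setting that tested them (19, or 18 for mira, which the stricter filter leaves out), 22 lost it on leaving out at least 1 array, 2 lost it under rescaling (IA-2 after centring, Pgk after centring and quantile normalization) and 0 changed sign. The counts of list members with each array left out or after rescaling were chosen after seeing the data. Replicate numbers did not pair the samples: correlations of same-numbered deviations between the mutant and elav groups ran from -0.19 to 0.20. With the replicate number as a block the count in both mutants was 218, with 555 for per0, 311 for cyc0, 573 for their mean, 145 against wild type and 40 between the mutants. Among named genes called in both mutants, cry, chinmo, ps and nerfin-1 lost their call under the block.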

Other observations

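One elav array held peptide transcripts that were at or near the lowest values on the other 2. In elav replicate 3 the peptide genes Ms, AstC, Ilp2, Ilp5 and Dh44 stood at 8.88, 7.02, 6.52, 5.24 and 5.13. In elav replicates 1 and 2 they lay between 2.32 and 2.86. On the mutant arrays Ms was at most 2.36, Ilp2 at 2.34 and Ilp5 at most 2.51. AstC and Dh44 read 3.99 and 3.89 on per0 replicate 3 and at most 2.89 and 2.62 on the other mutant arrays. These genes were too low on the other arrays to be tested. The insulin-like peptide gene Ilp7 stood at 8.95, 7.93 and 6.99 in wild-type LNvs at ZT15 and at 6.61 on cyc0 replicate 2, against at most 4.30 in per0 and 2.85 and 2.70 on the other cyc0 arrays.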
